A study of Mus musculus with 12 samples.

Results

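Transcripts of 9 myosin heavy chain genes were followed through differentiation of C2C12 cells, an immortalised mouse myoblast line whose cells fuse into myotubes when serum is withdrawn. The genes were Myh1, Myh2, Myh3, Myh4, Myh6, Myh7 and Myh8, which encode heavy chains of the muscle sarcomere, and Myh9 and Myh10, which encode non-muscle heavy chains. All probes annotated to these symbols were taken, which gave 17 of the 45281 probes in the table. They belong to 7 of the 9 genes, with 11 probes for 5 sarcomeric genes and 6 probes for the 2 non-muscle genes. For Myh2 and Myh3, the chains of adult type IIa fibres and of embryonic muscle, no probe was listed in the annotation used, so both were not analysed here. Each gene had 1 to 3 probes, and these are lettered a to c from the brightest to the dimmest.

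The 4 stages had 3 arrays each. Myoblasts were harvested at 50% and at 95% confluence in DMEM with BCS, and myotubes after 24 h and after 48 h in medium with horse serum, insulin and transferrin. All samples came from this 1 cell line, total RNA of whole cultures was hybridised to Illumina bead arrays, and the labels number the replicates without saying whether they were separate cultures. The p-values therefore measure the spread between these samples, and a larger share of fused cells and more RNA per cell cannot be told apart. Of the 8 genes fixed as markers of skeletal myoblasts and myotubes, 7 exceeded the array median in every sample at 50% and 6 at 95% confluence, and all 8 at 24 h and at 48 h.

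Myosin II is the motor of muscle contraction and of the actin cytoskeleton. A pair of heavy chains, each with a motor domain and a coiled-coil tail, assembles with light chains, and the tails pack into filaments. In developing skeletal muscle embryonic and perinatal chains come before the adult fast chains, while non-muscle chains serve adhesion, cytokinesis and cell shape. Myh6 encodes the alpha cardiac chain, and Myh7 the beta cardiac chain, which is also the chain of slow skeletal fibres. In the mouse annotation Myh3, Myh2, Myh1, Myh4 and Myh8 follow each other on chromosome 11 with no other protein-coding gene between them.

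The promoter windows of Myh8, Myh1 and Myh4 are shown because probes of these neighbouring genes were higher at 48 h and their windows share sequence. Myh4 has 1 dim probe, which rose by 0.27 on the second day. Signal from another heavy chain at that probe was not tested. Each window holds 300 bases, from 250 before to 50 after the annotated gene start (RefSeq, GRCm38.p6, plus strand), at chr11:67276874-67277173 for Myh8, chr11:67199852-67200151 for Myh1 and chr11:67237562-67237861 for Myh4. Capitals mark a match to the MEF2 motif (the first run) and a run of 14 bases common to the group (the second run).
Myh8: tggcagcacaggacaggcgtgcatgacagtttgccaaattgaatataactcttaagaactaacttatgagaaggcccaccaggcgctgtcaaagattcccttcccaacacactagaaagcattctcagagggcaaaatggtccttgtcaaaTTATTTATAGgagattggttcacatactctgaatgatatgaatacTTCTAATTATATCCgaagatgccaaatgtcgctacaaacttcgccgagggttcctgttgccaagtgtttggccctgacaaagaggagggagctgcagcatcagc
Myh1: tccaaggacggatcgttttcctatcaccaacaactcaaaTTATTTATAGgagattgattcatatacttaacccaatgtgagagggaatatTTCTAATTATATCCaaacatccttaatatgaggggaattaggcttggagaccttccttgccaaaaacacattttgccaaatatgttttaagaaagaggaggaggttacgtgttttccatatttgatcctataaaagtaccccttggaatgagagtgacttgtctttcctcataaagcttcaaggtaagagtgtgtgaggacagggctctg
Myh4: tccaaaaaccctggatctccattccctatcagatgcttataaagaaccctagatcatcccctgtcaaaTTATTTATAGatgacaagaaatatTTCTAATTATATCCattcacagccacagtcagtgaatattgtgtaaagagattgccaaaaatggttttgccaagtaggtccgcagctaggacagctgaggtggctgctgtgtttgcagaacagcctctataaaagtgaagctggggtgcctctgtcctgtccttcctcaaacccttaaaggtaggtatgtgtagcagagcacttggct

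The run TTCTAATTATATCC was the longest stretch found in all of the windows of Myh1, Myh2, Myh4 and Myh8, and of 32851 windows searched on both strands these 4 were the ones that held it. It began 54 bases upstream of the gene start in Myh8, 160 in Myh1, 158 in Myh4 and 125 in Myh2. The MEF2 motif, the binding sequence of the MEF2 transcription factors, matched in Myh8, Myh1 and Myh4 and in 3.2% of all windows. In these 3 genes it lay inside a longer common run of 15 bases, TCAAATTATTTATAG, which no other window held. Matches were also sought, on both strands, for the E-box CANNTG of the MyoD family (72.3% of windows), for TATAAA (13.6%), for CATTCC, the MCAT motif of TEAD factors (14.7%), and for the CArG box of SRF (1.6%). A TATAAA match on the opposite strand overlapped each MEF2 match. The CArG box matched in Myh4 alone among the 9 genes, and the E-box in 7 of them but not in Myh1 or Myh2. A match describes letters in these windows and was not tested for binding.

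**Figure D1:**
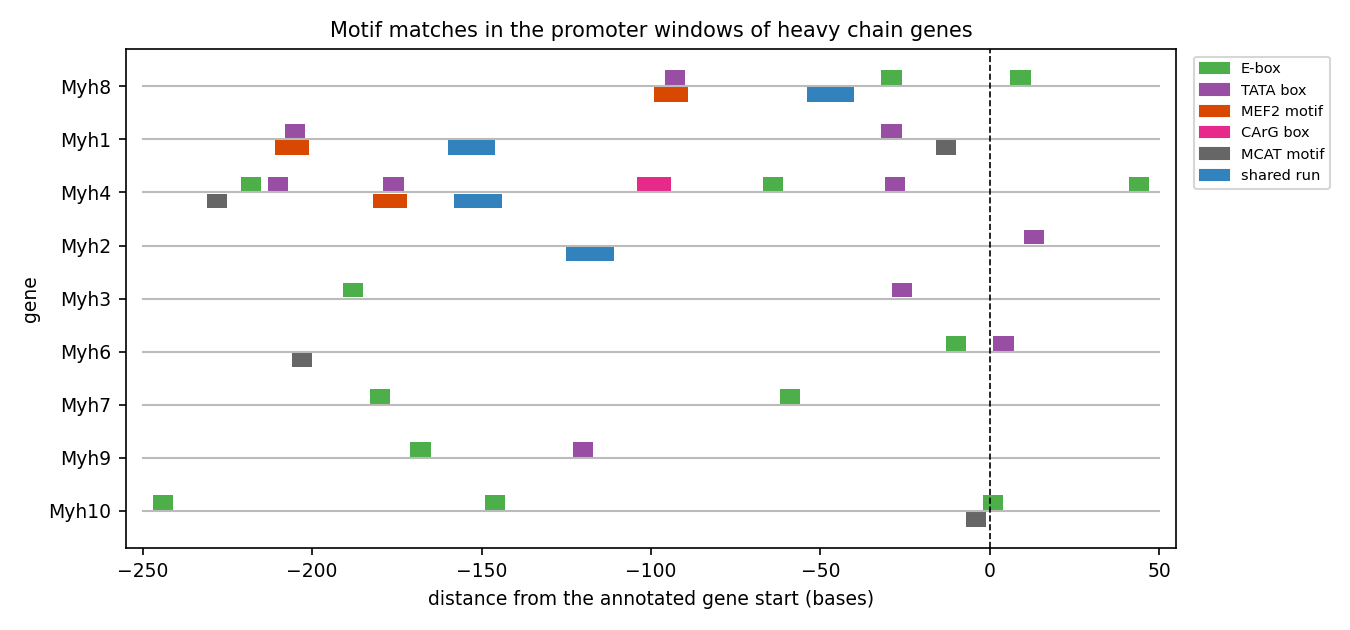
Matches in the promoter window of each of the 9 heavy chain genes, drawn by distance in bases from the annotated gene start (x axis, dashed line at the start); the shared run is the 14-base stretch. Myh8, Myh1 and Myh4 each show a MEF2 motif followed by the shared run, and Myh2 shows the shared run without a MEF2 match.

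Values are log2 intensities from the deposited normalized table, in which every array has the same median of 6.68 and a highest value of 15.25. A value near or below that median is dim, and since the scale can be compressed for dim probes, their changes can be understated. The stages were compared with limma over all probes, and p-values were adjusted over all 45281 of them (Benjamini-Hochberg, 2-sided, threshold 0.05). On the second principal component (23.5% of the variance) the 48 h and 50% arrays scored -31.1 to -15.3 and the 24 h and 95% arrays 8.25 to 30.1. The comparisons of 24 h with 95% and of 48 h with 50% stay within a side of this split. The other 2 cross it, and so does the second-day change minus the first-day change, through its second-day step. The part of this split in these comparisons was not tested. The values of array 3 at 95% confluence scattered most about their group means (residual SD 0.158, all others 0.0588 to 0.109), so standard errors against that group can be too small.

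Myh8, the perinatal heavy chain, rose on both days in its 3 probes, and by more on the second day. Their whole-course changes, 4.12 to 6.46, were the largest among the member probes, though different probes can respond differently to the same change. At 50% confluence Myh8 probe a read 6.95, 6.82 and 6.73, and at 95% confluence 6.57, 6.75 and 6.59. At 24 h it read 8.99, 8.24 and 8.59, and at 48 h 13.38, 13.17 and 13.35. The 24 h arrays all lay above the myoblast arrays, and the 48 h arrays lay above all others without overlap. On the second day the probe gained 4.69 (SE 0.13, adjusted p = 1.25e-15), with a mean of 13.30 ± 0.11 at 48 h and 8.61 ± 0.37 at 24 h (SD, n = 3 each). That is 25.8-fold if the values are plain log2. On the first day it gained 1.97 (SE 0.13, adjusted p = 7.65e-10), against 6.64 ± 0.10 at 95% confluence. At 48 h the probe was brighter than 99.3% of the probes on its array.

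The other Myh8 probes gave the second-day rise and a smaller first-day one. Probe b read 11.28, 10.98 and 11.06 at 48 h, against 7.47, 7.23 and 7.26 at 24 h. Probe c read 11.61, 11.11 and 11.36 at 48 h, against 7.66, 7.15 and 7.43 at 24 h. For both probes the 2 groups were more than 3 units apart. The second-day change was 3.79 (SE 0.08, adjusted p = 1.25e-16) for probe b and 3.95 (SE 0.12, adjusted p = 2.32e-15) for probe c. The first-day change of probe c was 0.67 (SE 0.12, adjusted p = 0.000270). Probe b rose on the first day by 0.33 (SE 0.08, adjusted p = 0.00764), with 7.32 ± 0.13 at 24 h and 6.98 ± 0.06 at 95% confluence (SD, n = 3 each). Without array 1 of the 24 h group the first-day change of probe b was 0.26 and no longer passed (adjusted p = 0.0744). The other 24 h arrays still lay above the 95% arrays, the highest of which read 7.05. The 3 probes followed each other over the 12 arrays (pairwise Pearson r 0.976 to 0.997, a description), but differ in the size of the early rise.

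Myh1, the heavy chain of adult fast IIx fibres, rose on both days in its probe a. This probe read 7.27, 6.86 and 6.78 at 50% confluence and 6.61, 6.63 and 6.51 at 95% confluence. Its 24 h arrays read 8.32, 8.0 and 8.10, and its 48 h arrays 10.45, 10.32 and 10.38. No 2 stages overlapped, and the lowest stage was 95% confluence. The first-day change was 1.56 (SE 0.10, adjusted p = 7.89e-10) and the second-day change 2.24 (SE 0.10, adjusted p = 1.44e-12). Over the whole course, 48 h against 50% confluence, the change was 3.41 (SE 0.10, adjusted p = 6.32e-16). At 95% confluence the probe was lower than at 50%, with a change of -0.39 (SE 0.10, adjusted p = 0.00956). Without array 1 of the 50% group, the highest of its group at 7.27, that fall was -0.24 and no longer passed (adjusted p = 0.0927). The other 50% arrays still lay above all 95% arrays.

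**Figure D2:**
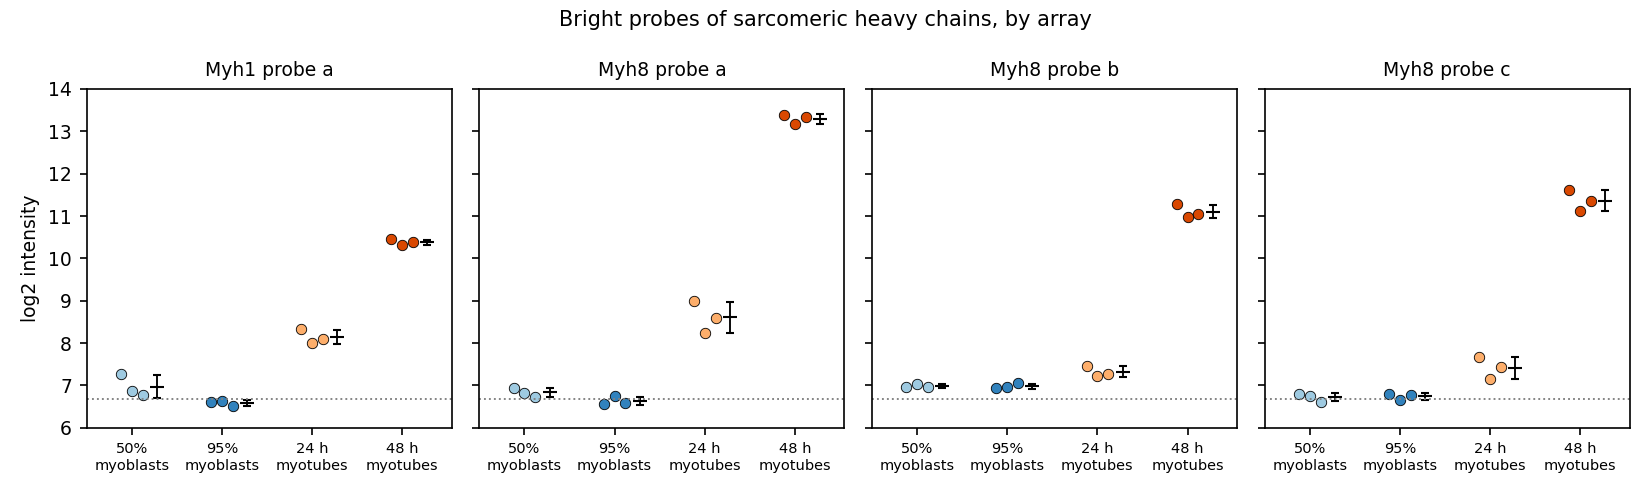
Log2 intensity (y axis) of the brightest Myh1 probe and of the 3 Myh8 probes on each array, by stage (x axis); points are arrays, bars show mean ± SD (n = 3), and the dotted line is the array median of 6.68. All 4 probes lie near the median in myoblasts and rise at 24 h, with 48 h means of 10.38 for Myh1 and 11.10 to 13.30 for Myh8.

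The order of onset was read from the first successive step with an adjusted p under 0.05 and a rise of at least 1. By this measure Myh1 probe a and Myh8 probe a came on at 24 h, and Myh8 probes b and c at 48 h. No probe came on at 95% confluence. With the mean over the probes of a gene, both genes came on at 48 h, since their first-day changes were 0.99 for Myh8 and 0.85 for Myh1, under the limit of 1. The share of the log2 rise between 95% confluence and 48 h that was present at 24 h was 41.0% for Myh1 probe a (37.3% to 45.8% over the 24 h arrays). For Myh8 it was 29.6% by probe a (24.1% to 35.3%), 14.5% by probe c (8.82% to 19.9%) and 8.11% by probe b (5.93% to 11.8%). From that baseline the ranges of Myh1 probe a and of each Myh8 probe did not overlap, with Myh1 higher by this share. The baseline matters, as Myh1 probe a was lower at 95% confluence (6.58) than at 50% (6.97). Taken from 50% confluence, the ranges of Myh1 probe a and Myh8 probe a overlap. On a linear scale, taking the values as plain log2, the share from 95% confluence was 15.0% for Myh1 probe a. It was 2.91%, 1.59% and 2.51% for Myh8 probes a, b and c.

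The 2 days were compared within each probe by the second-day change minus the first-day change. This difference was 2.72 (SE 0.23, adjusted p = 4.25e-08) for Myh8 probe a, so its second day exceeded the first. For Myh1 probe a it was 0.69 (SE 0.18, adjusted p = 0.0116), and 0.54 (adjusted p = 0.116) and 0.64 (adjusted p = 0.0713) without arrays 2 and 3 of the 24 h group. Setting the changes of the 2 genes against each other array by array, the second-day change of Myh8 exceeded that of Myh1 by 2.45, 1.54 and 1.71 for probes a, b and c. The first-day change of Myh8 minus that of Myh1 was 0.41, -1.22 and -0.89. Over these 6 differences the 2-sided exact permutation p was 0.1 each (Benjamini-Hochberg 0.1), which is the smallest that 3 against 3 arrays can give. Different probes can respond differently to the same change, and the Myh8 probes themselves disagree on whether its first-day change was above or below that of Myh1.

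Some markers of other cell types also changed over these days. Over all genes, each by its brightest probe, 8.97% rose and 11.6% fell on the first day. The shares over all genes on the second day were 13.4% and 12.9%. Of 7 fibroblast markers 4 rose on the first day, Dcn (4.05), Col3a1 (0.99), Col1a1 (0.52) and Lum (0.22). The 2 that fell were Twist2 (-1.52) and Pdgfra (-0.26). The 95% arrays of Dcn were spread (SD 1.22). The mean level of the list was 8.72 to 8.83 at 24 h and 7.88 to 8.39 at 95% confluence. On the second day 0 of the 7 rose and 2 fell, Twist2 (-0.93) and Col3a1 (-0.58). Of 8 smooth muscle markers 2 rose and 1 fell on the first day. On the second day 1 rose (Smtn, 1.37) and 3 fell, Actg2 (-1.58), Tagln (-0.35) and Myh11 (-0.09). The mean level of the smooth muscle list was 8.75 to 8.77 at 48 h and 8.82 to 8.87 at 24 h. Adipocyte, osteoblast, endothelial and leukocyte markers (6, 5, 5 and 4 with a probe) did not pass on either day. Their part in the rise of Myh8 and Myh1 was not tested.

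Probes of Myh4, Myh6 and Myh7 and the second Myh1 probe were dim at every stage, and a set of 4 of them rose at 48 h by less than 0.4. Myh4, the chain of the fastest adult IIb fibres, read 6.98, 6.86 and 6.85 at 48 h, against 6.67, 6.62 and 6.61 at 24 h. All 48 h arrays lay above the array median and all 24 h arrays below it. Its second-day change was 0.27 (SE 0.04, adjusted p = 5.72e-05), while the first-day value was 0.12 (adjusted p = 0.0787). Myh1 probe b read 6.98, 6.85 and 6.84 at 48 h, against 6.65, 6.66 and 6.66 at 24 h, a change of 0.23 (SE 0.05, adjusted p = 0.000502). Its whole-course change was 0.37, while that of probe a was 3.41, and the probes gave r of 0.919 over the 12 arrays.

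The cardiac and slow chains gave mixed probes. Myh6 probe a read 7.0, 6.88 and 6.94 at 48 h, against 6.59, 6.60 and 6.60 at 24 h, a change of 0.34 (SE 0.04, adjusted p = 5.95e-07). Myh6 probe b did not pass in any comparison, with 6.45 ± 0.02 at 48 h and 6.50 ± 0.04 at 24 h (SD, n = 3 each). Its values ran against those of probe a over the 12 arrays (Pearson r -0.564, a description). Myh7 probe a read 7.15, 6.96 and 7.04 at 48 h, against 6.73, 6.73 and 6.64 at 24 h, a change of 0.35 (SE 0.05, adjusted p = 4.62e-06). Myh7 probes b and c had second-day values of 0.06 and 0.08 and did not pass (adjusted p = 0.235 and 0.150), with stage means between 6.57 and 6.71. A call at 48 h for Myh6 or Myh7 therefore rests on 1 of 2 and on 1 of 3 probes.

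Among 9 cardiomyocyte marker genes, 2 exceeded the array median in every sample of each myoblast stage, 3 at 24 h and 3 at 48 h. The mean log2 level of that list was 6.69 to 6.73 at 50% and 6.78 to 6.79 at 95% confluence, 6.92 to 6.97 at 24 h and 6.73 to 6.74 at 48 h. On the second day 0 of the 9 rose, 1 fell (Nppb, -1.91) and 8 did not pass, with a median change of -0.01. Over all genes 13.4% rose and 12.9% fell on that day. At 48 h Nppb (7.38), Gata4 (6.98) and Tnni3 (6.82) had means above the array median, and the other 6 were below it (6.51 to 6.65). The part of other cell types in the values of Myh6 and Myh7 was not tested. The 4 dim probes that rose followed Myh8 probe a over the 12 arrays with Pearson r of 0.915 to 0.960, a description over arrays that share their stages. Heavy chain genes are alike in sequence and no probe sequence was used here, so signal from another heavy chain at these probes was not tested.

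**Figure D3:**
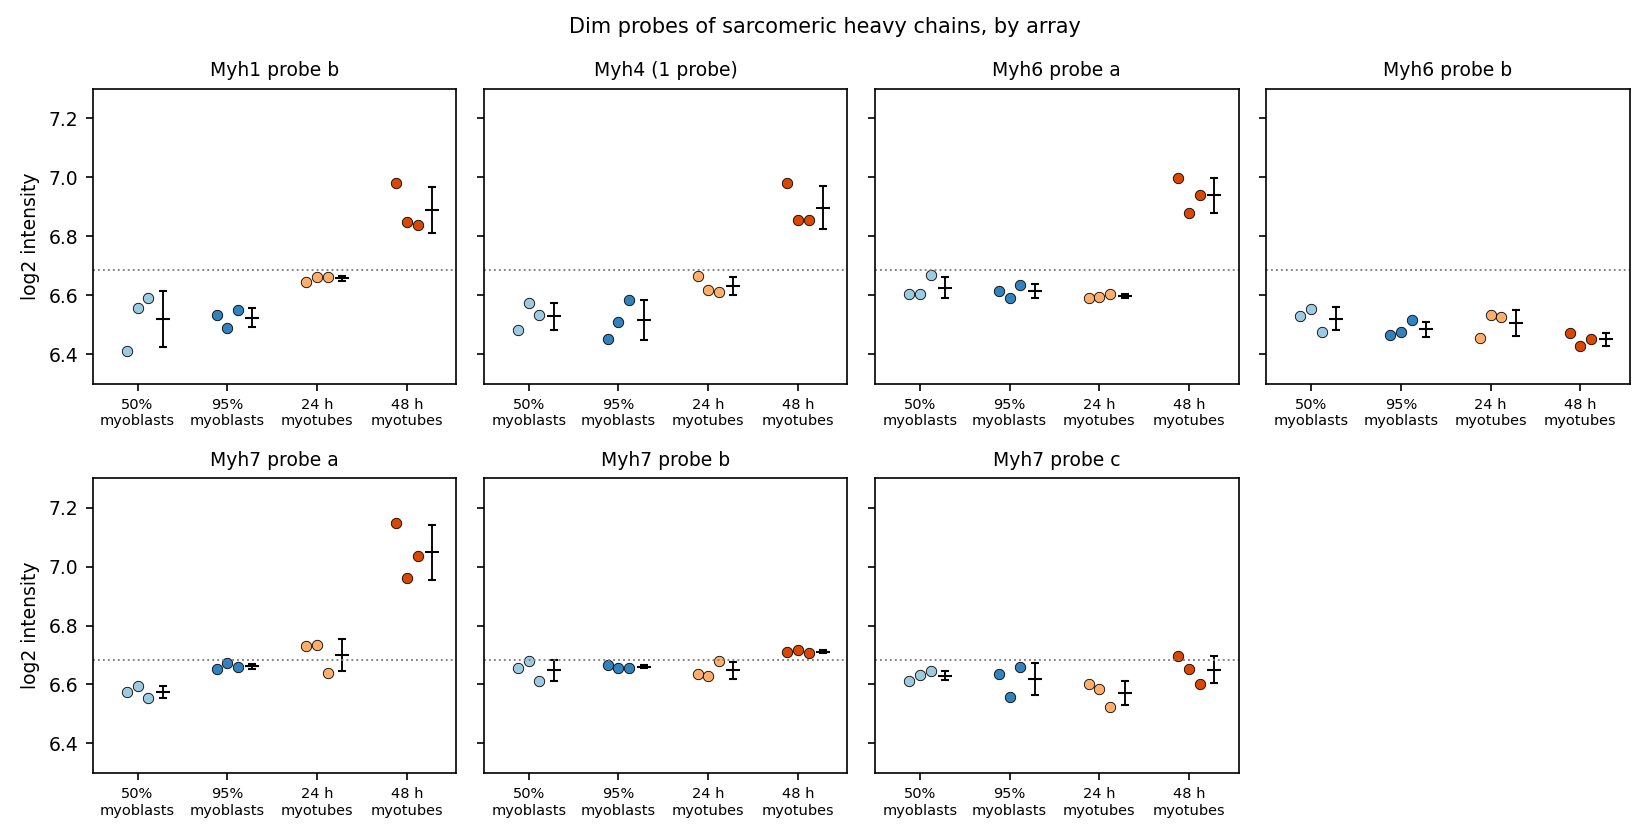
Log2 intensity (y axis, 6.3 to 7.3) of the 7 dim probes of sarcomeric heavy chains on each array, by stage (x axis); points are arrays, bars show mean ± SD (n = 3), and the dotted line is the array median of 6.68. Myh1 probe b, Myh4, Myh6 probe a and Myh7 probe a lie above the other stages at 48 h, while Myh6 probe b and Myh7 probe c overlap across stages.

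The arrays of a myotube stage were ordered alike across several probes. Myh1 probe a and the 3 Myh8 probes were all 4 highest on array 1 and lowest on array 2, at 24 h and again at 48 h. Over the 8 probes that rose over the whole course, array 1 was highest in 5 at 24 h and in 8 at 48 h, and array 2 lowest in 4 and in 6. At 24 h the spread was widest for Myh8 probe a, whose SD of 0.37 compares with 0.11 at 48 h.

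Myh9 and Myh10, the non-muscle chains, were lower in confluent myoblasts than in sparse ones. Myh9 encodes non-muscle myosin IIA, which drives stress fibre contraction and cell migration. Its probe a read 12.49, 12.21 and 12.16 at 95% confluence, against 12.92, 12.57 and 12.90 at 50%. The groups did not overlap, and the change was -0.51 (SE 0.10, adjusted p = 0.000634). From there it moved little, with 12.15 ± 0.07 at 24 h and 12.33 ± 0.06 at 48 h, and neither day passed (adjusted p = 0.462 and 0.243). Over the whole course Myh9 probe a changed by -0.47 (SE 0.10, adjusted p = 0.000868), and at 48 h it was still brighter than 98.5% of probes.

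Myh10 encodes non-muscle myosin IIB, a slower motor of the cortex and of dividing cells. Its probe a read 9.06, 9.12 and 8.97 at 95% confluence, against 9.70, 9.54 and 9.55 at 50%, a change of -0.55 (SE 0.09, adjusted p = 0.000153). No array of a later stage reached the range of the 50% group. The whole-course change was -0.63 (SE 0.09, adjusted p = 1.58e-05). On the first day the value was -0.23 (adjusted p = 0.111), and without array 3 of the 95% group it was -0.27 (adjusted p = 0.0311).

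The other probes of the 2 non-muscle genes were dim. Myh9 probe c had 6.60 ± 0.05 at 95% and 7.04 ± 0.05 at 50% confluence, a change of -0.44 (SE 0.04, adjusted p = 9.67e-08). It rose again on the second day by 0.26 (SE 0.04, adjusted p = 4.86e-05), to 6.83 ± 0.01 at 48 h against 6.58 ± 0.03 at 24 h. Its high stages are thus those that share a side of the second principal component. Myh9 probe b and Myh10 probes b and c passed in none of the comparisons, and probes b and c of Myh10 lay below the array median on all 12 arrays.

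**Figure D4:**
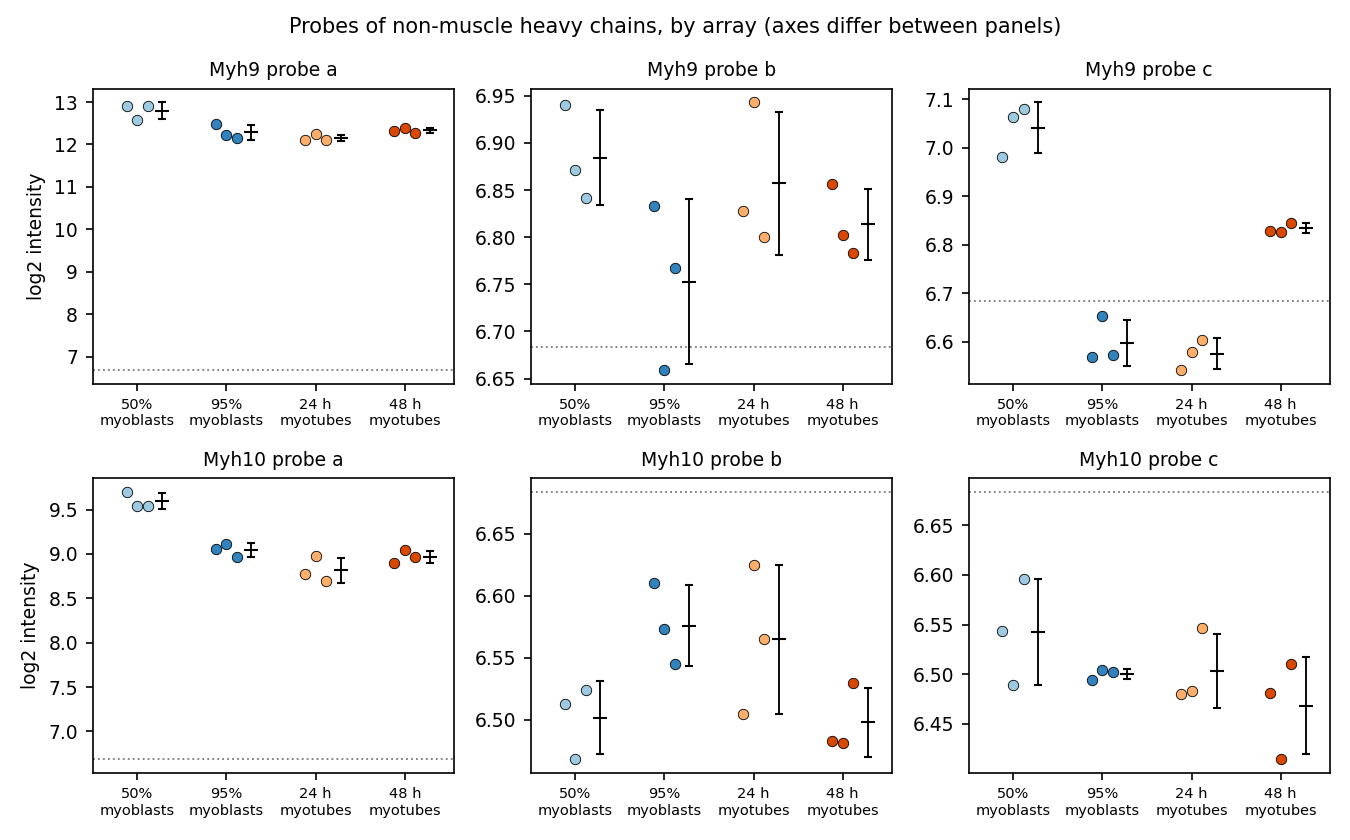
Log2 intensity (y axis, scaled per panel) of the 6 probes of Myh9 and Myh10 on each array, by stage (x axis); points are arrays, bars show mean ± SD (n = 3), and the dotted line is the array median of 6.68. Myh9 probe a and Myh10 probe a are highest at 50% confluence and stay lower from 95% confluence on, while Myh9 probe c is low at 95% and 24 h only.

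Counted over the 17 probes, 4 rose and 0 fell on the first day, where 6.75% of all probes rose and 8.76% fell. At an unadjusted limma p under 0.05, 6 member probes were higher and 1 lower on that day, with 10.7% and 13.9% over all probes. On the second day 9 rose and 0 fell, with 11.5% and 11.6% over all probes (unadjusted limma p under 0.05: 10 higher and 0 lower, with 14.4% and 15.8% over all probes). Over the whole course 8 rose and 3 fell, with 12.2% and 14.3% over all probes, and all 3 that fell were non-muscle probes (unadjusted limma p under 0.05: 8 higher and 5 lower, with 14.9% and 17.3% over all probes). Between 95% and 50% confluence 0 rose and 4 fell, with 9.74% and 10.2% over all probes (unadjusted limma p under 0.05: 1 higher and 5 lower, with 14.2% and 14% over all probes). The second day exceeded the first for 7 probes, against 7.8% of all probes, and the opposite held for 0, against 6.6% (unadjusted limma p under 0.05: 8 and 0, with 12.2% and 11.4% over all probes). A change at any stage was called by the F-test for 11 of the 17 probes, against 37.8% of all probes. The probes of 1 gene are not independent, and 4 of the 9 probes up on the second day belong to Myh8 and to Myh1 probe a.

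**Figure D5:**
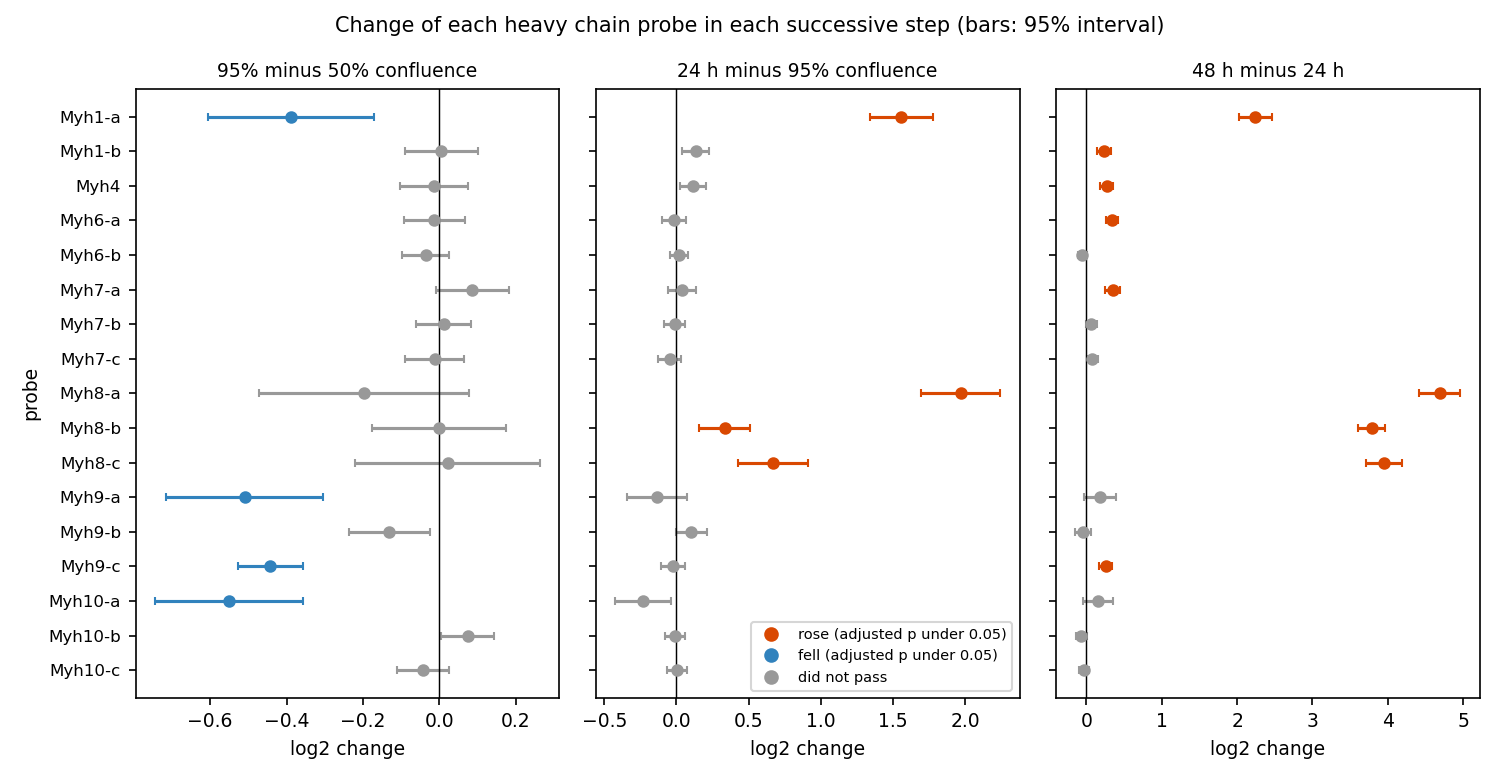
Log2 change (x axis, scaled per panel) of each of the 17 heavy chain probes (y axis) in the 3 successive steps, with 95% intervals; colours mark probes that rose, fell or did not pass. The falls lie in the confluence step, and the second day has 9 rises, of which those of Myh1 probe a and the Myh8 probes are above 2.

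The partners of the heavy chains were described with lists of genes by function, each gene by its brightest probe, beside the shares over all 19057 genes. On the first day 8.97% of all genes rose and 11.6% fell, and on the second day 13.4% rose and 12.9% fell. Of 6 sarcomeric light chains, which bind the neck of the heavy chain, 3 rose and 0 fell on the first day (median change 2.36). These were Mylpf (6.52), Myl4 (4.83) and Myl1 (4.69), of which Myl4, an embryonic and atrial chain, rose further on the second day (1.91), while Mylpf (0.45) and Myl1 (0.45) did not pass. Myl2, the regulatory light chain of slow and ventricular muscle, rose on the second day by 1.58, to 8.12 at 48 h against 6.53 at 24 h. Myl3 had 0.11 on the second day and passed, and Myl7 had 0.02 and did not. Mylpf, Myl1 and Myl4 had fallen at 95% against 50% confluence (-2.93, -2.17 and -2.02), and the 95% arrays of Mylpf and Myl1 were spread (SD 0.85 and 1.90). At 24 h Mylpf and Myl1 averaged 14.53 and 14.42, near the highest value of the table, 15.25.

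Of 13 thick filament and M-band genes with a probe, 9 rose on the first day and 11 on the second, with 0 falling on either and medians of 0.42 and 0.88. On the second day Ttn (3.75), the scaffold protein titin, Myom3 (2.57), Myom1 (2.55) and Myom2 (1.99), the myomesins that link thick filaments at the M-band, had the largest rises. The first-day changes of these 4, taken from 95% confluence, were 2.91, 3.01, 1.43 and 3.78, so that of Myom2 and of Myom3 was the larger. All 4 had fallen at 95% against 50% confluence (-1.77, -0.67, -0.25 and -0.60). Taken from 50% confluence, the larger first day does not hold for Myom3 (7.26 at 50%, 9.61 at 24 h, 12.18 at 48 h). Fast sarcomere partners rose in 5 of 9 genes on the first day and in 8 of 9 on the second, and the largest second-day changes were those of Tnnt3 (2.01), Atp2a1 (1.69), Tnni2 (1.65) and Tnnc2 (1.37). The first-day changes of these 4, taken from 95% confluence, were larger, at 4.11, 4.77, 4.78 and 6.49. At 48 h Tnnc2 (15.04), Tnni2 (14.41) and Atp2a1 (14.26) were close to the highest value of the table, 15.25. A limit on their second-day changes from this was not tested. Between 50% and 95% confluence Atp2a1 (-1.06), Tnni2 (-0.65) and Tnnc2 (-2.05) had fallen, while Tnnt3 (-0.40) did not pass. Slow and cardiac partners rose in 8 of 9 genes on the first day and in 7 of 9 on the second, with 1 falling each time. Myoz2 (2.52), Casq2 (2.42), Csrp3 (1.93) and Atp2a2 (1.78) had the largest second-day rises, after first-day rises of 2.08, 3.12, 2.78 and 1.73, and Tpm3 fell on both days (-0.50 and -1.45).

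Proteins that fold myosin did not move as a group. Of 8 with a probe, 2 rose and 3 fell on the first day, and 2 rose and 2 fell on the second. Unc45b, the muscle chaperone of the myosin motor domain, rose by 3.60 and then 1.66, and Smyd1, a muscle methyltransferase needed for myosin assembly in zebrafish, by 0.52 and 0.48. The general co-chaperones Fkbp4 (-0.48) and Ahsa1 (-0.36) fell on the first day. Of 9 light chains and regulators of non-muscle and smooth muscle myosin, 4 rose and 0 fell on the first day, and 2 rose and 4 fell on the second. On the second day Myl9 (-1.39), a regulatory light chain, and Ppp1cb (-1.12), a subunit of myosin phosphatase, fell, and Myl6b (1.55) rose, while Myh9 and Myh10 probe a did not pass.

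Among 16 transcription factors of muscle and fibre type, 6 rose and 2 fell on the first day, and 8 rose and 1 fell on the second. Mef2c, a MEF2 factor, rose by 1.36 and then 1.69, Tead4 by 0.93 and 1.24, and Tbx15, linked to fast fibres, by 0.44 and 0.87. Myog, myogenin, rose mainly on the first day (4.62, then 0.73). Sox6, which represses slow chains in mouse muscle, had 0.06 and -0.05 and passed on neither day. Its probe was dim, with stage means of 6.60 to 6.66, below the array median of 6.68, so a change could be missed.

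The genes whose pattern over the 12 arrays was most like that of Myh1 probe a, among 2721 probes with a range of stage means of at least 1, were Ryr1 and Actn2 (Pearson r 0.998 each), Itga7 (0.997), Itgb1bp2 (0.997) and Nmrk2 (0.996). Those most like Myh8 probe a were Pygm (0.9995), Fam78a (0.999), Actn2 by another probe (0.999), Ablim3 (0.998) and Myom1 (0.998). For Myh8 probe b they were Tcap, Ccdc141, Ampd1, Shisal1 and Afap1l1 (0.996 to 0.997), and for probe c Rbfox1, Trp63, Ky, Afap1l1 and Camk2a (0.995 to 0.997). Ryr1 changed by 2.06 on the first day and 2.72 on the second, and Tcap, the Z-disc cap of titin, by 0.17 and 1.70. On the first day the neighbours of Myh1 probe a moved by 1.14 to 2.66. Those of Myh8 probes a, b and c moved by 0.57 to 1.62, 0.07 to 0.20 and 0.16 to 0.59. All were picked for likeness to a probe, so their split between the days follows from that choice and adds nothing on the order of the genes. The correlations describe arrays that share their stages and were not tested.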

How the data were processed

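Biotin-labelled cRNA of 12 C2C12 samples was hybridised to Illumina bead arrays. The values used are the authors' deposited log2 intensities, for which RMA and lumi are listed in the submitters' processing notes without saying which did what. Each of the 12 columns has the same sorted values, the mark of quantile normalization, and a plain log2 and a variance-stabilized scale could not be told apart. The 24 columns of a table before normalization carry names that match no sample and were not used, so background correction, normalization and slide were not varied.

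Genes come from the platform annotation, with symbols updated through gene identifiers: 34885 probes have 1 gene, 18 several and 10378 none. Group means of all 45281 probes were fitted without a filter on dim probes (lmFit, eBayes with trend, limma 3.58.1, R 4.3.3, 8 residual and 11.6 prior degrees of freedom). A filter would keep a chain that is off in myoblasts through its high stage alone; 13 of the 17 member probes would pass one at the array median in all arrays of a group. Adjusted p-values of single probes come from this fit, which was tested on simulated data. The simulation had independent noise of equal spread on every array and changed only brighter probes, at 48 h. It therefore does not cover dim probes or an array with more scatter. Python 3.11.15 and scipy 1.17.1 served the permutation tests. Promoter sequences are RefSeq's. The number of arrays limits the precision.

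Genes of the function lists that are named are up to 4 per list with the largest change past the threshold, all members of the list of 6 light chains, and the 5 genes most like a member by Pearson r; Sox6, the further light chain values and some regulators were named after their values were seen. The members and lists were chosen with earlier results of these data known. Alternatives covered filters, the variance model, array weights, scaling, probe choice, the replicate block and each array left out.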

Additional observations from a re-analysis of the deposited data

Results flagged for a closer look

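For 7 of the 17 heavy chain probes the change of the second day differed from that of the first in a test of the difference itself (7.8% of all probes differed in this direction and 6.6% in the other). The second-day change minus the first-day change was 3.45 for Myh8 probe b, 3.28 for Myh8 probe c and 2.72 for Myh8 probe a. It was 0.69 for Myh1 probe a, 0.36 for Myh6 probe a, 0.31 for Myh7 probe a and 0.28 for Myh9 probe c. In Myh9 probe c the second-day rise followed a level that had fallen by 95% confluence. Leaving out array 3 of the 24 h group gave 0.24 for Myh7 probe a (adjusted p = 0.104), and leaving out array 1 of that group gave 0.25 for Myh9 probe c (adjusted p = 0.0709). The values of Myh1 probe a without arrays 2 and 3 of the 24 h group were 0.54 and 0.64, with adjusted p of 0.116 and 0.0713.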

How the results depend on the processing

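Of 1678 values of single member probes under the alternatives, 1650 kept direction and side of the threshold, or stayed short of it, 22 passed that had not, 6 no longer passed and 0 called values changed sign. The onset stage was kept in the fits by probe, but with the mean over the probes of a gene that of Myh1 and of Myh8 was 48 h, as their other probes changed less on the first day. With 1 row per gene fewer features were tested, which lowers the counts by construction. With the mean of probes they were 4079 for 24 h against 95%, 5097 for 48 h against 24 h, 6648 for 48 h against 50%, 4397 for 95% against 50%, 3110 for the difference of the days and 8738 for any stage. With the brightest probe they were 4135, 5082, 6667, 4482, 3138 and 8775 in the same order. The level filter of 7.5 left 6 member probes, of which 4 rose on the second day, 4 rose over the whole course and 1, Myh10 probe a, fell on the first day. With 1 array left out, the member probes that fell on the first day numbered 0 to 1 (1 without array 3 of the 95% group) and those that rose 3 to 6, while 9 rose on the second day each time. Myh4 and Myh1 probe b passed on the first day in some fits, with changes of 0.12 to 0.15 and 0.13 to 0.15 there, among them those without array 3 of the 95% group (adjusted p = 0.0177 and 0.0407).

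Groups share replicate numbers, and 5 of 18 same-numbered pairs deviated together with r over 0.1 (range -0.048 to 0.275). The best match had the same number in 18 of 36 cases, where 1 of 3 candidates shares the number. Array 1 was also highest and array 2 lowest for Myh1 probe a and the Myh8 probes at both myotube stages. Whether the numbers pair the samples is not settled by these counts, and the main fit did not pair them. With the replicate block the counts were 7263, 10704, 12164 and 9251 for 24 h against 95%, 48 h against 24 h, 48 h against 50% and 95% against 50%, compared with 7023, 10451, 12018 and 9023 without it, and no call of a member probe changed. Background correction, another normalization and the slide as a block were not run. Dim probes near the array median limit what can be said of Myh4, Myh6 and Myh7.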

Other observations

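Other class II heavy chains stayed dim. Myh11, the smooth muscle chain, Myh14, a non-muscle chain, and Myh15 had stage means between 6.48 and 6.57 at all 4 stages, and the only value that passed was a second-day change of -0.09 for Myh11 (adjusted p = 0.0460). Among the cardiomyocyte markers Nppb, a natriuretic peptide, was transiently high, with a mean of 7.35 at 50% and 7.97 at 95% confluence, 9.29 at 24 h and 7.38 at 48 h. Its second-day change was -1.91.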
